A study of Mus musculus with 12 samples.

Results

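Mitosis is carried out by a set of proteins that most dividing cells make in bulk only late in the cell cycle. Cyclin-dependent kinase 1 and its cyclins start it, together with the Polo and Aurora kinases. Motor proteins and microtubule cross-linkers build the spindle, and kinetochores attach chromosomes to it. The spindle checkpoint holds back the anaphase-promoting complex until all chromosomes are attached, and a contractile ring then divides the cell. Many of these genes are known to share a pattern of transcription in which the MuvB complex, with B-MYB and FOXM1, raises them late in the cycle and the DREAM complex holds them down in resting cells, through short promoter elements called CHR and CCAAT. In macrophages, ligands of Toll-like receptors are known both to activate inflammatory genes and to slow proliferation.

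The genes described here are 40 mouse genes of mitosis, chosen by name, with earlier results of these data known. They were followed in RAW264.7 cells, a mouse macrophage-like line that grows continuously in culture and is known to have arisen from an Abelson virus-induced tumour. To count as measured, a gene needed a probe whose detection p was below 0.05 on 3 or more arrays, and the brightest such probe represents it. By this rule 28 of the 40 genes were measured, among 8101 genes in all. Of these 28, 27 were detected on all 12 arrays and Ube2c on 11, missing 1 of the 3 gefitinib arrays. Another 8 fell under the minimum. Ccna2, Ccnb2, Bub1, Cenpe, Nuf2, Hmmr and Ect2 were detected on 0 arrays and Kif20a on 1, so their levels have no value here. Ccnb1, Aurkb, Cenpf and Racgap1 had no probe listed under their symbols and were not analysed here.

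Total RNA was measured on 12 Illumina bead arrays, 3 for each of 4 groups, and the labels call the 3 biological replicates. All cells were RAW264.7 in DMEM with serum. One group was untreated. One received gefitinib, an inhibitor of the EGF receptor kinase, at 10 µM. One received CpG, DNA with unmethylated CpG motifs that is known to activate Toll-like receptor 9, at 10 µg/ml for 6 h. The last received gefitinib for 1 h and then CpG, at the same doses. The labels state neither the CpG sequence, nor a vehicle for the untreated cells, nor how long cells without CpG were kept. The design text names the comparison of CpG with gefitinib against CpG as the one of interest.

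Between 10705 and 11181 of 25697 probes were detected per array. Macrophage identity was checked on a list of 10 markers. Of these, 7 were measured, 6 of them on all 12 arrays (Adgre1, Lyz2, Ptprc, Cd14, Fcgr1 and Spi1), while Mertk was detected on 0 arrays and Csf1r and Cd68 had no listed probe. All 5 fibroblast markers and the 4 lymphocyte markers with a probe were detected on 0 arrays. Of the 4 epithelial markers with a probe, 3 were detected on 0 arrays and Cdh1 on 11. Of the 4 granulocyte markers with a probe, Mpo and Prtn3 were detected on 0, Elane on 2 and Camp on 4. Values are given as log2 of background-corrected, quantile-normalised bead signal, and a difference between groups is on the same scale. Probes differ in how well they bind, so levels of different genes are not compared.

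RefSeq promoter windows (mouse build GRCm38.p6, 250 bases before to 50 after the start of a gene) were given for 33 of the 40 genes. A CHR element of the form TTTGAA was present on either strand in 24 of these 33, or 72.7%, against 20.2% of all 27025 genes with a window and 14.3% of the 6672 measured genes with one. With the form TTTAAA added, the share was 81.8% (27 of 33) against 30.6% of all genes. A CCAAT box was found in 75.8% against 41.1%. The E2F core GCGGGAA, which is known from genes of DNA synthesis, was found in 0 of 33 against 5.29% of all genes and 9.79% of measured genes. Of 102 other mitosis genes with a window, listed below, 42.2% held TTTGAA, 60.8% a CCAAT box and 18.6% the E2F core. Of 47 DNA replication genes these shares were 17%, 59.6% and 40.4%. A gene with several windows counted if any of them held the motif, matches had to be exact, and neighbouring matches may share bases. A match describes letters, not binding.

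The windows of 4 genes cover 3 genes called in both main comparisons and 1 called in none. Kif11 (chr19:37376132-37376431, plus strand) and Kif22 (chr7:127042371-127042670, minus strand) belong to genes that fell with CpG and rose when gefitinib was added. Nusap1 (chr2:119618048-119618347, plus strand) had the largest such changes among the 28 genes, and its window held no match. Cdk1 (chr10:69352863-69353162, minus strand) was called in no comparison, and its window held matches of both kinds. Each is written in the direction of its gene, with every CHR and CCAAT match on either strand in capitals.
Kif11: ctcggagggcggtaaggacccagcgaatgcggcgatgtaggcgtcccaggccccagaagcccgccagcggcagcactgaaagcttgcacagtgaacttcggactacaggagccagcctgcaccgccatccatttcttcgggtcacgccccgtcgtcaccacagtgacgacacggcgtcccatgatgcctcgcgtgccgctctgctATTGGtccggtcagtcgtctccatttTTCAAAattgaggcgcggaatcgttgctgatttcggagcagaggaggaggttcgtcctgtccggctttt
Kif22: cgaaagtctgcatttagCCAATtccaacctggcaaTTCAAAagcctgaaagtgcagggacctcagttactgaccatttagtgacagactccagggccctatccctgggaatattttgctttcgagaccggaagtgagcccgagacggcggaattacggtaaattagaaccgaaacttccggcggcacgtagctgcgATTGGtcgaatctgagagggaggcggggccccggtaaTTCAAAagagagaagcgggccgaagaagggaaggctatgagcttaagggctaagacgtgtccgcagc
Nusap1: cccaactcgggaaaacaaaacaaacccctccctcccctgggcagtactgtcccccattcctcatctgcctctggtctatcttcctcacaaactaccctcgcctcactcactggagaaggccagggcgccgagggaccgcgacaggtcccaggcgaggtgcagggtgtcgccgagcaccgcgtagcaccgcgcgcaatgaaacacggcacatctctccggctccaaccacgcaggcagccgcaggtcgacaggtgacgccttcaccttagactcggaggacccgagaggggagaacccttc
Cdk1: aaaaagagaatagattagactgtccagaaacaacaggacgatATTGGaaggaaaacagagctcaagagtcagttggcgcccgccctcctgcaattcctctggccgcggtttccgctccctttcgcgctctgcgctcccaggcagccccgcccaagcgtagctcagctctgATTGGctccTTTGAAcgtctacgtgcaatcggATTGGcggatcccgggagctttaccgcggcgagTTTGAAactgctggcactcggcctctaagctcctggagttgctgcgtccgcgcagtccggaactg
In Kif11 the CHR match began at position -19 and the CCAAT match at -45, counted from the start of the gene. Kif22 had CHR matches at -215 and -17 and CCAAT matches at -233 and -54. Cdk1 had CHR matches at -71 and -15 and CCAAT matches at -208, -80 and -48.

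Part of the mitosis genes fell in cells given CpG and none rose. Of the 28 measured genes, 12 fell and 0 rose in CpG against untreated cells (limma, threshold of 0.05 for p-values adjusted over all 8101 genes by Benjamini-Hochberg). Among all genes, 25.4% were called, 15.3% lower and 10% higher. The median log2 difference was -0.39 over the 28 genes and -0.06 over all genes. Differences were below 0 in 26 of the 28 genes and in 4767 of all 8101. In bulk RNA, fewer cells in or near mitosis and less of each transcript per cell cannot be told apart.

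When gefitinib preceded CpG, part of the same genes stood higher than with CpG alone. In CpG with gefitinib against CpG, 15 of the 28 genes rose and 0 fell, where 37.3% of all genes were called, 22% higher and 15.2% lower. The median difference was 0.37, against 0.06 over all genes. The CpG arrays enter both comparisons, so the 2 sets of differences are not independent. Of the 28 genes, 11 were called in both: Plk1, Bub1b, Mad2l1, Birc5, Cdca8, Ndc80, Kif11, Kif2c, Kif22, Nusap1 and Prc1. Under median scaling of the arrays in place of quantile normalisation, the count of 15 was 9, and that of all genes called higher 1212 in place of 1786. Kif4 was called only in CpG against untreated. Cdc25c, Aurka, Cdc20 and Anln were called only in CpG with gefitinib against CpG.

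The remaining comparisons called none of the 28 genes. In gefitinib against untreated 0 were called, where 7.8% of all genes were, and 5 of the 28 had an unadjusted p under 0.05 (limma), against 24.5% of all genes. Cells with both agents against untreated cells gave 0 calls, against 3.88% of all genes, with 3 of the 28 and 19.1% of all genes under an unadjusted p of 0.05. Both agents against gefitinib alone gave 0 calls among the 28 and 0% of all genes. There, 0 of the 28 and 252 of all 8101 genes (3.11%) had an unadjusted p under 0.05.

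**Figure D1:**
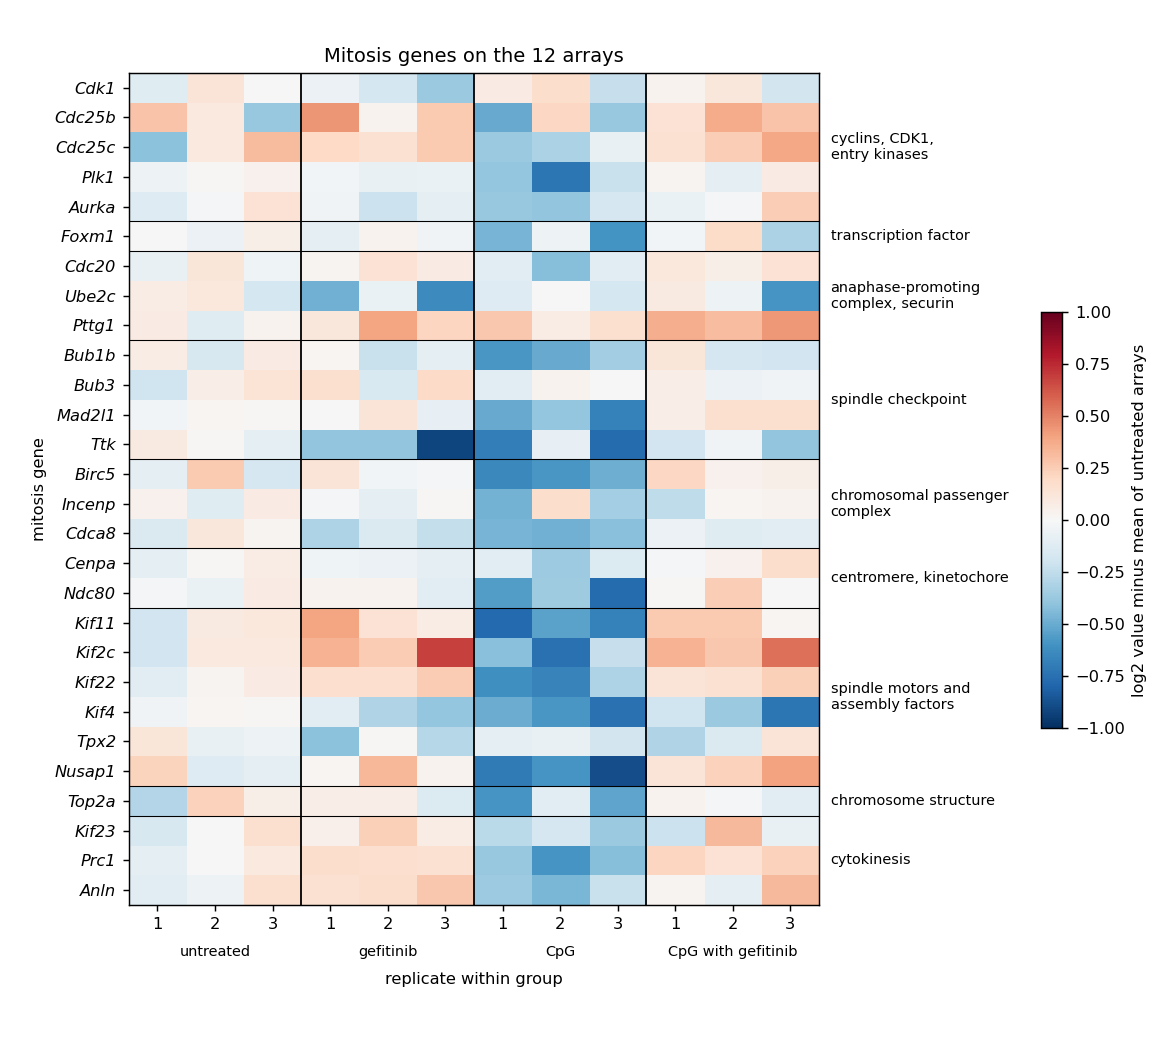
Each cell shows the log2 value of a mitosis gene (rows, grouped by role) on 1 array (columns, 3 replicates in each of 4 groups) minus its mean over the 3 untreated arrays. The 3 CpG arrays are the bluest columns, and rows such as Cdk1, Ube2c, Pttg1, Bub3 and Tpx2 do not follow that pattern.

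The plot of every gene on every array shows the pattern as a block of lower values on the 3 CpG arrays. Averaged over the 28 genes, the 3 CpG arrays lay at 8.56, 8.64 and 8.58, and the other 9 arrays between 8.89 and 9.02. The group means were 8.95 ± 0.05 untreated, 8.95 ± 0.03 with gefitinib, 8.59 ± 0.04 with CpG and 8.998 ± 0.017 with both (SD, n = 3 arrays). The CpG group had the lowest mean in 23 of the 28 genes, the gefitinib group in 4 and the untreated group in 1. The lowest group was not counted over all genes. The 3 CpG arrays lay below all 3 untreated arrays in 17 of the 28 genes, against 22.6% of all genes. The 3 arrays with both agents lay above all 3 CpG arrays in 17, against 27.2%.

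The genes of entry into mitosis differed in their calls. Of 5 measured genes, 1 fell with CpG and 3 rose when gefitinib was added. Beside the counts by role, here and below, stand 15.3% of all genes lower with CpG and 22% higher with gefitinib added. Roles hold so few genes that these counts describe their members only and are not set apart from those shares. Plk1 encodes Polo-like kinase 1, which is needed for mitotic entry, spindle assembly and cytokinesis, and its log2 values were 10.38, 10.44 and 10.47 in untreated cells, 10.40, 10.36 and 10.36 with gefitinib, 10.04, 9.71 and 10.21 with CpG and 10.46, 10.33 and 10.51 with both. The 3 CpG arrays lay below the other 9. Plk1 fell by 0.44 ± 0.12 on the log2 scale with CpG (SE, n = 3 arrays per group), or 1.36-fold, with adjusted p = 0.0161 (limma). It rose by 0.45 ± 0.12 when gefitinib was added, with adjusted p = 0.011.

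Aurka encodes Aurora kinase A, which acts at the spindle poles, and its log2 values were 10.16, 10.28 and 10.43 in untreated cells, 10.26, 10.08 and 10.20 with gefitinib, 9.91, 9.90 and 10.12 with CpG and 10.22, 10.28 and 10.54 with both. All CpG arrays but the third lay below every other array, and that one, at 10.12, lay between the gefitinib arrays. The difference of 0.37 ± 0.12 with gefitinib added was called (adjusted p = 0.0261, limma), and that of -0.31 ± 0.12 with CpG alone was not (adjusted p = 0.0711). Cdc25c encodes a phosphatase that activates cyclin-dependent kinase 1, and its values were 6.64, 7.15 and 7.37 in untreated cells, 7.25, 7.20 and 7.32 with gefitinib, 6.68, 6.74 and 6.98 with CpG and 7.21, 7.30 and 7.44 with both. The untreated arrays spread from 6.64 to 7.37 and overlapped the CpG arrays. Cdc25c rose by 0.52 ± 0.16 with gefitinib added (adjusted p = 0.0218, limma), and its CpG difference of -0.25 ± 0.16 had an adjusted p of 0.285. Its other kept probe also rose, by 0.44 (adjusted p = 0.00841 over all kept probes).

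Cdc25b, a related phosphatase, was not called in any comparison, although its difference of 0.49 ± 0.20 with gefitinib added was similar in size to that of Cdc25c (adjusted p = 0.0671, limma). Its CpG arrays, at 5.08, 5.79 and 5.21, overlapped those with both agents, at 5.73, 5.96 and 5.87. Cdk1 encodes the kinase that drives entry into mitosis, and its log2 values were 10.62, 10.87 and 10.73 in untreated cells, 10.69, 10.56 and 10.37 with gefitinib, 10.83, 10.92 and 10.51 with CpG and 10.78, 10.86 and 10.56 with both. The 4 groups overlapped throughout. The CpG difference was 0.01 ± 0.13, with a 95% interval of -0.28 to 0.30, and the difference with gefitinib added was -0.02 ± 0.13, with an interval of -0.31 to 0.27. Both intervals exclude differences as large as those of Plk1. Of the 3 Cdk1 probes, 1 was detected and carries these values.

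Foxm1 encodes the transcription factor that switches on many late cell cycle genes. Its log2 values were 8.003, 7.95 and 8.06 in untreated cells, 7.92, 8.04 and 7.97 with gefitinib, 7.54, 7.95 and 7.41 with CpG and 7.98, 8.19 and 7.69 with both, so that CpG replicate 2 lay with the untreated arrays and the other CpG arrays below them. Neither the CpG difference of -0.37 ± 0.15 (adjusted p = 0.0883, limma) nor that of 0.32 ± 0.15 with gefitinib added (adjusted p = 0.112) was called. The gene's other probe was called in both comparisons, at -0.48 (adjusted p = 0.0363 over all kept probes) and 0.44 (adjusted p = 0.0411).

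Of the 3 genes of the anaphase-promoting complex and its substrate securin, 0 were called with CpG and 1 with gefitinib added. Cdc20 encodes the activator that the spindle checkpoint inhibits, and its log2 values were 10.45, 10.65 and 10.48 in untreated cells, 10.56, 10.67 and 10.61 with gefitinib, 10.42, 10.10 and 10.42 with CpG and 10.63, 10.59 and 10.67 with both. It rose by 0.31 ± 0.11 with gefitinib added (adjusted p = 0.0374, limma). This call was lost in 9 of 24 alternative settings, among them each one that left out an array with both agents or CpG replicate 2. The 3 other Cdc20 probes gave 0.33, 0.37 and 0.30 and were not called. Ube2c encodes the ubiquitin-conjugating enzyme of the complex, and its differences were -0.10 ± 0.18 with CpG and -0.08 ± 0.18 with gefitinib added, neither of them called.

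Pttg1 encodes securin, which holds sister chromatids together by blocking separase. Its log2 values were 6.52, 6.31 and 6.47 in untreated cells, 6.54, 6.83 and 6.65 with gefitinib, 6.71, 6.51 and 6.60 with CpG and 6.80, 6.75 and 6.87 with both. The untreated group was the lowest, and all 3 arrays with both agents lay above all 3 untreated arrays. The difference between these groups was 0.37 ± 0.11, with an adjusted p of 0.0757 (limma). This order, with untreated cells lowest, was found in no other of the 28 genes.

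Of the spindle checkpoint genes, 2 of 4 fell with CpG and the same 2 rose with gefitinib added. Mad2l1 encodes MAD2, which binds and inhibits CDC20 at unattached kinetochores. Its log2 values were 10.41, 10.46 and 10.45 in untreated cells, 10.45, 10.57 and 10.36 with gefitinib, 9.94, 10.06 and 9.77 with CpG and 10.51, 10.61 and 10.60 with both. Each CpG array lay below each of the other 9. Mad2l1 fell by 0.52 ± 0.10, or 1.44-fold, with CpG (adjusted p = 0.00215, limma). It rose by 0.65 ± 0.10, or 1.57-fold, with gefitinib added (adjusted p = 0.000263).

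Bub1b encodes BUBR1, another part of the inhibitory complex, with log2 values of 8.36, 8.13 and 8.38 in untreated cells, 8.31, 8.07 and 8.19 with gefitinib, 7.71, 7.79 and 7.94 with CpG and 8.41, 8.12 and 8.10 with both. Again the CpG arrays lay below the other 9. The gene fell by 0.48 ± 0.12 with CpG (adjusted p = 0.0111, limma) and rose by 0.40 ± 0.12 with gefitinib added (adjusted p = 0.0208). Bub3, the partner of BUBR1, was at 7.29, 7.55 and 7.63 in untreated cells, 7.65, 7.34 and 7.68 with gefitinib, 7.39, 7.53 and 7.50 with CpG and 7.56, 7.43 and 7.46 with both. Those values overlapped in all 4 groups, and the differences were -0.02 ± 0.12 with CpG, with a 95% interval of -0.28 to 0.24, and 0.01 ± 0.12 with gefitinib added, with an interval of -0.25 to 0.27.

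Ttk encodes MPS1, the kinase at the top of the checkpoint. Its log2 values were 6.12, 6.04 and 5.93 in untreated cells, 5.63, 5.63 and 5.11 with gefitinib, 5.33, 5.94 and 5.26 with CpG and 5.84, 6.00 and 5.64 with both. Each treated group had arrays below the untreated range, and gefitinib replicate 3 was the lowest array of all. The differences from untreated cells were -0.52 ± 0.19 with CpG (adjusted p = 0.0601, limma), -0.57 ± 0.19 with gefitinib (adjusted p = 0.081) and -0.20 ± 0.19 with both (adjusted p = 0.609), none of them called.

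The chromosomal passenger complex places Aurora kinase B at centromeres and at the midzone. Of its 3 measured subunits, 2 fell with CpG and rose with gefitinib added. Birc5 encodes survivin, the subunit that binds chromatin, and its log2 values were 10.86, 11.21 and 10.78 in untreated cells, 11.08, 10.92 and 10.93 with gefitinib, 10.31, 10.36 and 10.46 with CpG and 11.15, 10.99 and 11.00 with both. No CpG array exceeded 10.46, and all others lay at 10.78 or above. The gene fell by 0.57 ± 0.12 (1.48-fold, adjusted p = 0.00349, limma) and rose by 0.67 ± 0.12 (1.59-fold, adjusted p = 0.000703). All 3 Birc5 probes were called in both comparisons, at -0.57, -0.59 and -0.66 with CpG and at 0.67, 0.74 and 0.76 with gefitinib added.

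Cdca8 encodes borealin, and its log2 values were 9.14, 9.40 and 9.32 in untreated cells, 8.98, 9.14 and 9.05 with gefitinib, 8.82, 8.81 and 8.87 with CpG and 9.23, 9.17 and 9.18 with both. The CpG arrays were again the lowest 3, and the gefitinib arrays all lay below the untreated ones. Cdca8 fell by 0.45 ± 0.10 with CpG (adjusted p = 0.00391, limma) and rose by 0.36 ± 0.10 with gefitinib added (adjusted p = 0.0115), while the difference of -0.23 ± 0.10 with gefitinib alone was not called (adjusted p = 0.165). Incenp, the scaffold of the complex, was at 8.94, 9.59 and 9.08 on the CpG arrays and 9.46, 9.29 and 9.49 on the untreated arrays. CpG replicate 2 had the highest Incenp value of the 12 arrays, and neither the CpG difference of -0.21 ± 0.15 nor that of 0.15 ± 0.15 with gefitinib added was called.

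At the kinetochore, Ndc80 encodes the subunit that grips microtubules, and its log2 values were 8.95, 8.91 and 9.05 in untreated cells, 9.01, 9.01 and 8.86 with gefitinib, 8.41, 8.62 and 8.20 with CpG and 8.98, 9.21 and 8.97 with both. No CpG array exceeded 8.62, and all others lay at 8.86 or above. It fell by 0.56 ± 0.12 (adjusted p = 0.00395, limma) and rose by 0.64 ± 0.12 with gefitinib added (adjusted p = 0.000954). Cenpa encodes the histone H3 variant that marks centromeres, and its differences of -0.20 ± 0.10 and 0.27 ± 0.10 were not called (adjusted p = 0.179 and 0.0561, limma). In a fit of all groups with the replicate number as a block, the second had an adjusted p of 0.0471 (limma). That block also covered the untreated arrays, so this value does not rest on pairing CpG with gefitinib and CpG alone.

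**Figure D2:**
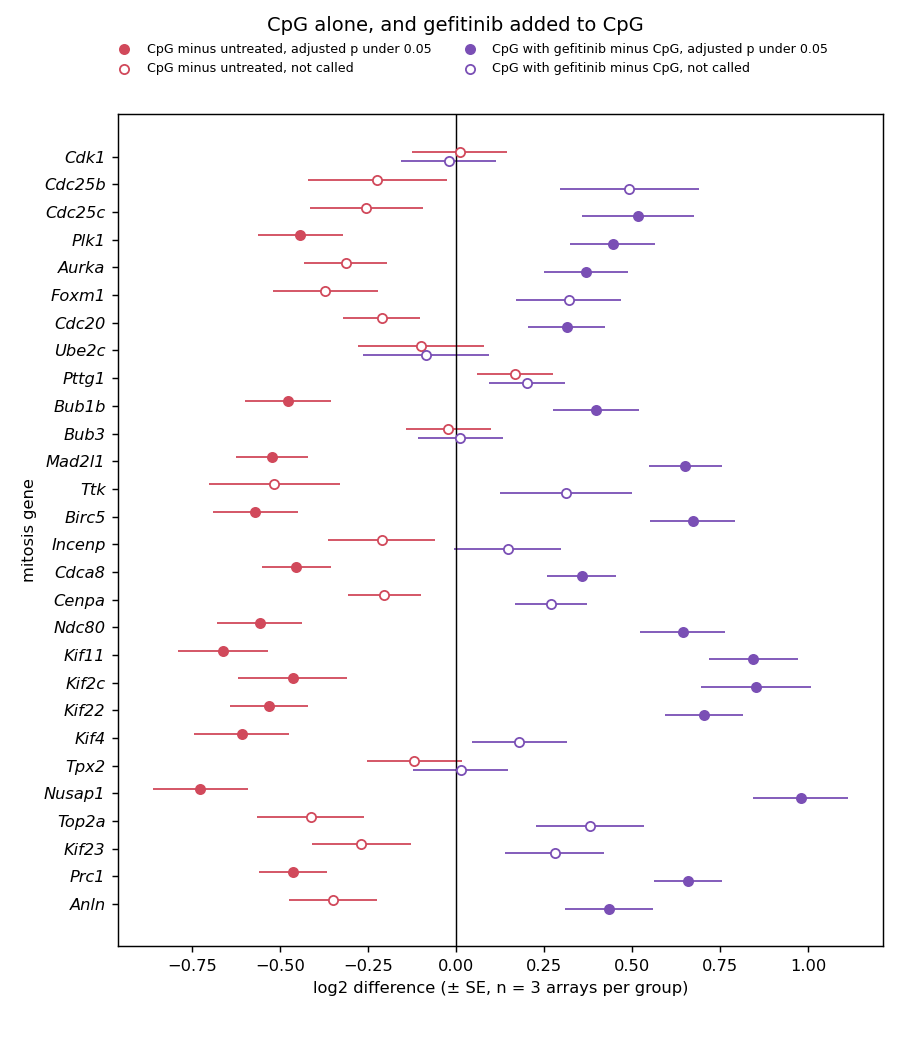
Log2 differences of the 28 mitosis genes in CpG minus untreated (red) and CpG with gefitinib minus CpG (purple), with bars of ± 1 SE (n = 3 arrays per group) and filled points for adjusted p under 0.05 (limma). The largest falls with CpG are those of Nusap1, Kif11 and Kif4, the largest rises with gefitinib added those of Nusap1, Kif2c and Kif11, and 12 red and 15 purple points are filled.

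The spindle motors and assembly factors included the largest changes, as the plot of both comparisons shows. Of 6 measured genes, 5 fell with CpG and 4 rose with gefitinib added. Nusap1 encodes a protein that bundles spindle microtubules around chromosomes, and its log2 values were 10.27, 9.91 and 9.95 in untreated cells, 10.06, 10.37 and 10.07 with gefitinib, 9.34, 9.45 and 9.16 with CpG and 10.17, 10.27 and 10.44 with both. No CpG array exceeded 9.45, and all others lay at 9.91 or above. Nusap1 fell by 0.73 ± 0.13, or 1.65-fold (adjusted p = 0.0014, limma), and rose by 0.98 ± 0.13, or 1.97-fold, with gefitinib added (adjusted p = 8.41e-05). Its other 2 kept probes, detected on 8 and 6 arrays, gave smaller differences of -0.35 and -0.61 with CpG, the second of them called, and 0.39 and 0.46 with gefitinib added, neither called.

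Kif11 encodes EG5, the motor that pushes the spindle poles apart, and its log2 values were 7.37, 7.65 and 7.66 in untreated cells, 7.95, 7.70 and 7.63 with gefitinib, 6.78, 7.03 and 6.88 with CpG and 7.82, 7.82 and 7.58 with both. The CpG arrays lay below the other 9. Kif11 fell by 0.66 ± 0.13, or 1.58-fold, with CpG (adjusted p = 0.00175, limma) and rose by 0.84 ± 0.13, or 1.80-fold, with gefitinib added (adjusted p = 0.00017). Kif22 encodes KID, a motor that pushes chromosome arms away from the poles, and its values were 9.46, 9.60 and 9.65 in untreated cells, 9.74, 9.73 and 9.82 with gefitinib, 8.96, 8.90 and 9.26 with CpG and 9.70, 9.72 and 9.81 with both. Here the gefitinib arrays also lay above all untreated arrays. Kif22 fell by 0.53 ± 0.11 with CpG (adjusted p = 0.00311, limma) and rose by 0.70 ± 0.11 with gefitinib added (adjusted p = 0.000246).

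Kif2c encodes MCAK, which takes microtubules apart at centromeres to correct faulty attachments. Its log2 values were 8.20, 8.49 and 8.49 in untreated cells, 8.74, 8.65 and 9.08 with gefitinib, 7.98, 7.65 and 8.17 with CpG and 8.74, 8.66 and 8.95 with both. The groups with gefitinib, with or without CpG, lay above the untreated arrays, and the CpG arrays lay below the untreated ones. Kif2c rose by 0.85 ± 0.15, or 1.81-fold, with gefitinib added to CpG (adjusted p = 0.000779, limma). It fell by 0.46 ± 0.15 with CpG (adjusted p = 0.0431), a call lost in 10 of 24 alternative settings, 6 of which left out 1 array. Against untreated cells the differences were 0.43 ± 0.15 with gefitinib (adjusted p = 0.109) and 0.39 ± 0.15 with both (adjusted p = 0.187), neither of them called.

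Kif4 encodes a chromosome-bound motor that shapes chromosomes and the central spindle, and its log2 values were 8.50, 8.56 and 8.55 in untreated cells, 8.43, 8.24 and 8.15 with gefitinib, 8.04, 7.95 and 7.79 with CpG and 8.34, 8.17 and 7.81 with both. The untreated arrays lay above all other 9. Kif4 fell by 0.61 ± 0.13 with CpG (adjusted p = 0.00463, limma), but its difference of 0.18 ± 0.13 with gefitinib added was not called (adjusted p = 0.332). With both agents the difference from untreated cells was -0.43 ± 0.13, with a 95% interval of -0.72 to -0.14 and an adjusted p of 0.0961. The gene's 2 other probes were not called in either comparison and gave -0.13 and -0.26 with CpG. Tpx2, which activates Aurora kinase A on the spindle, was not called, with differences of -0.12 ± 0.13 with CpG and 0.01 ± 0.13 with gefitinib added.

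Among genes of chromosome structure and cytokinesis, Prc1 moved both ways. Prc1 encodes the cross-linker of the central spindle, and its log2 values were 10.75, 10.84 and 10.94 in untreated cells, 11.02, 11.01 and 11.00 with gefitinib, 10.47, 10.26 and 10.42 with CpG and 11.06, 10.99 and 11.08 with both. The arrays of the gefitinib group lay closest together, and the CpG arrays lay below the other 9. Prc1 fell by 0.46 ± 0.10 with CpG (adjusted p = 0.00312, limma) and rose by 0.66 ± 0.10, or 1.58-fold, with gefitinib added (adjusted p = 0.00014).

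Anln encodes anillin, a scaffold of the contractile ring, and its log2 values were 10.22, 10.28 and 10.49 in untreated cells, 10.48, 10.50 and 10.60 with gefitinib, 9.97, 9.87 and 10.11 with CpG and 10.36, 10.23 and 10.66 with both. All CpG arrays lay below all others. The gene rose by 0.44 ± 0.13 with gefitinib added (adjusted p = 0.0151, limma), while its CpG difference of -0.35 ± 0.13 had an adjusted p of 0.0572. Its other probe, at 0.09 in the first of these comparisons and -0.15 in the second, was not called. Kif23 encodes MKLP1, the motor of the centralspindlin complex, and was not called, at -0.27 ± 0.14 with CpG and 0.28 ± 0.14 with gefitinib added. Top2a, the topoisomerase that untangles sister chromatids, was at 8.89, 9.36 and 8.95 on the CpG arrays against 9.19, 9.71 and 9.54 untreated. Its differences of -0.41 ± 0.15 and 0.38 ± 0.15 were not called (adjusted p = 0.0644 and 0.0663, limma). The second had an adjusted p of 0.0399 in the fit of all groups with the replicate block.

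CpG replicate 2 had a higher value than the other CpG arrays in Foxm1, Incenp, Ttk and Top2a, which missed the threshold. The same held for genes called in both comparisons, such as Mad2l1, Ndc80, Kif11 and Nusap1. It also held for other genes not called, such as Cdk1, Bub3 and Tpx2. When this array was left out, Foxm1, Incenp, Ttk and Top2a were called in both comparisons, and Cdc25b in the second. Plk1 and Kif2c then lost their calls in CpG against untreated, and Cdc25c, Aurka, Cdc20 and Anln theirs in CpG with gefitinib against CpG. The counts of called genes without it were 14 in the first and 16 in the second. The shares of all genes without this array are not given here.

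**Figure D3:**
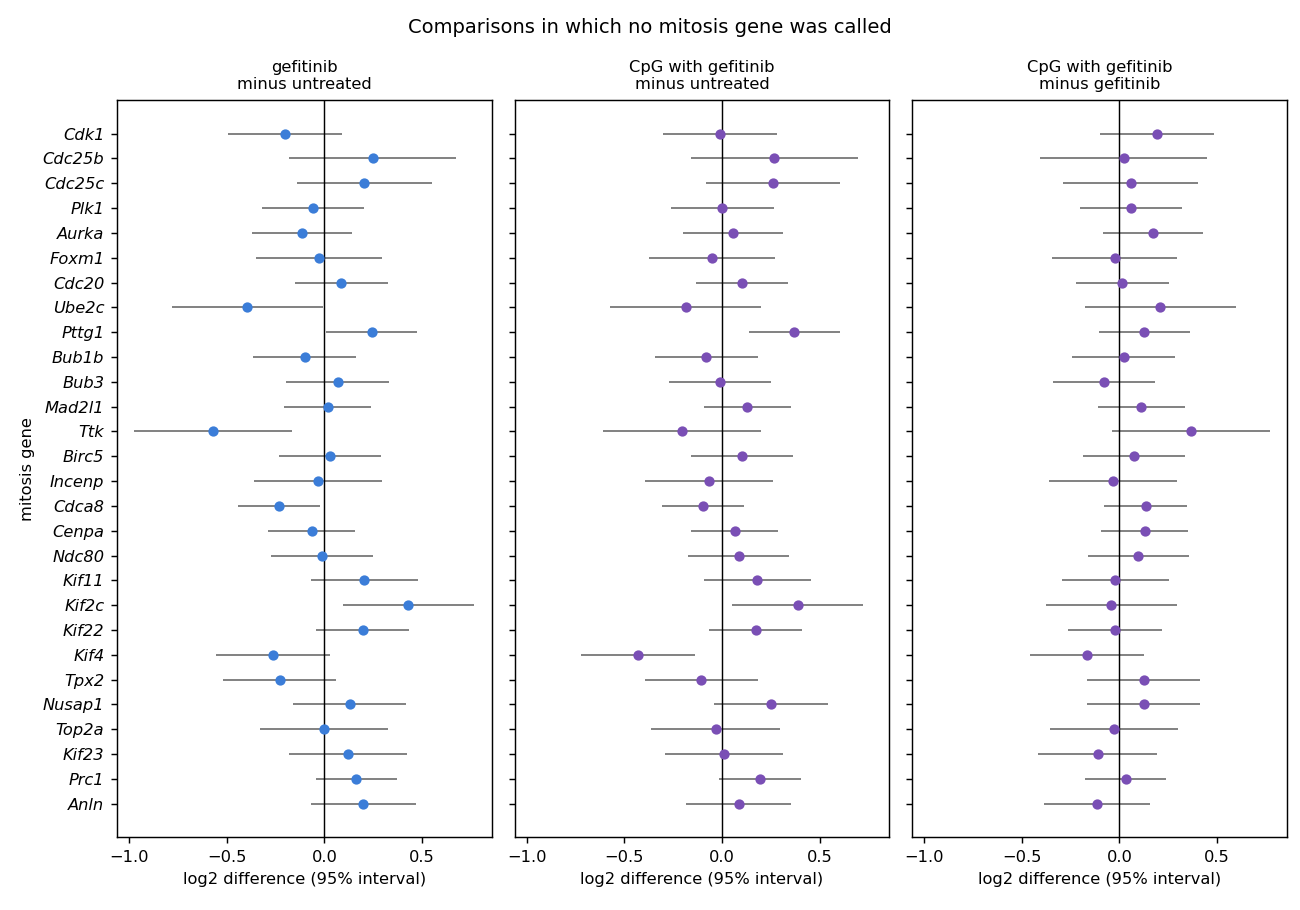
Log2 differences of the 28 mitosis genes (points) with their 95% intervals (bars) in the 3 comparisons that called none of them. In CpG with gefitinib minus gefitinib all 28 intervals hold 0, and 26 lie within 0.5 of it.

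How close the cells with both agents came to cells without CpG can be read from intervals, since a missed threshold does not show that groups are alike. In CpG with gefitinib against untreated, 25 of the 28 intervals held 0 and 20 lay wholly within 0.5 log2 units of it. Those that did not hold 0 belonged to Pttg1 (0.14 to 0.60) and Kif2c (0.05 to 0.72), both higher, and Kif4 (-0.72 to -0.14), lower. Against gefitinib alone, all 28 held 0 and 26 lay within 0.5, the exceptions being Ube2c (-0.18 to 0.60) and Ttk (-0.04 to 0.77). In gefitinib against untreated, 23 held 0 and 21 lay within 0.5. The plot of these intervals shows Ttk, Cdca8 and Ube2c below 0 there, and Kif2c and Pttg1 above it. The margin of 0.5 is wider than the median absolute difference in CpG against untreated, 0.39. In that comparison 7 of the 28 intervals also lay within it, and in CpG with gefitinib against CpG 8 did. An interval within this margin therefore does not show a return to the untreated level.

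The test of whether the CpG effect differed with and without gefitinib called 8 of the 28 genes, all in the direction of a smaller fall or a rise with gefitinib (limma, adjusted over 8101 genes). Of all genes, 12.3% were called in this test and 6.34% in the same direction. The values were 0.85 ± 0.19 for Nusap1 (adjusted p = 0.00992), 0.63 ± 0.15 for Mad2l1 (adjusted p = 0.0117) and 0.59 ± 0.14 for Cdca8 (adjusted p = 0.0133). For Ndc80 the value was 0.66 ± 0.17 (adjusted p = 0.0232), for Birc5 0.65 ± 0.17 (adjusted p = 0.0253) and for Prc1 0.50 ± 0.14 (adjusted p = 0.0304). Kif11 was at 0.64 ± 0.18 (adjusted p = 0.0325) and Ttk at 0.88 ± 0.26 (adjusted p = 0.0452). In 7 of the 8, CpG lowered the gene without gefitinib and the CpG effect in its presence lay between -0.02 and 0.13. Ttk is the exception, since gefitinib alone stood at -0.57 against untreated and neither CpG effect was called. Kif2c, with the largest rise but 1 on adding gefitinib, had a value of 0.42 ± 0.22 that was not called (adjusted p = 0.252). Kif22, at 0.51 ± 0.16, had an adjusted p of 0.0505.

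**Figure D4:**
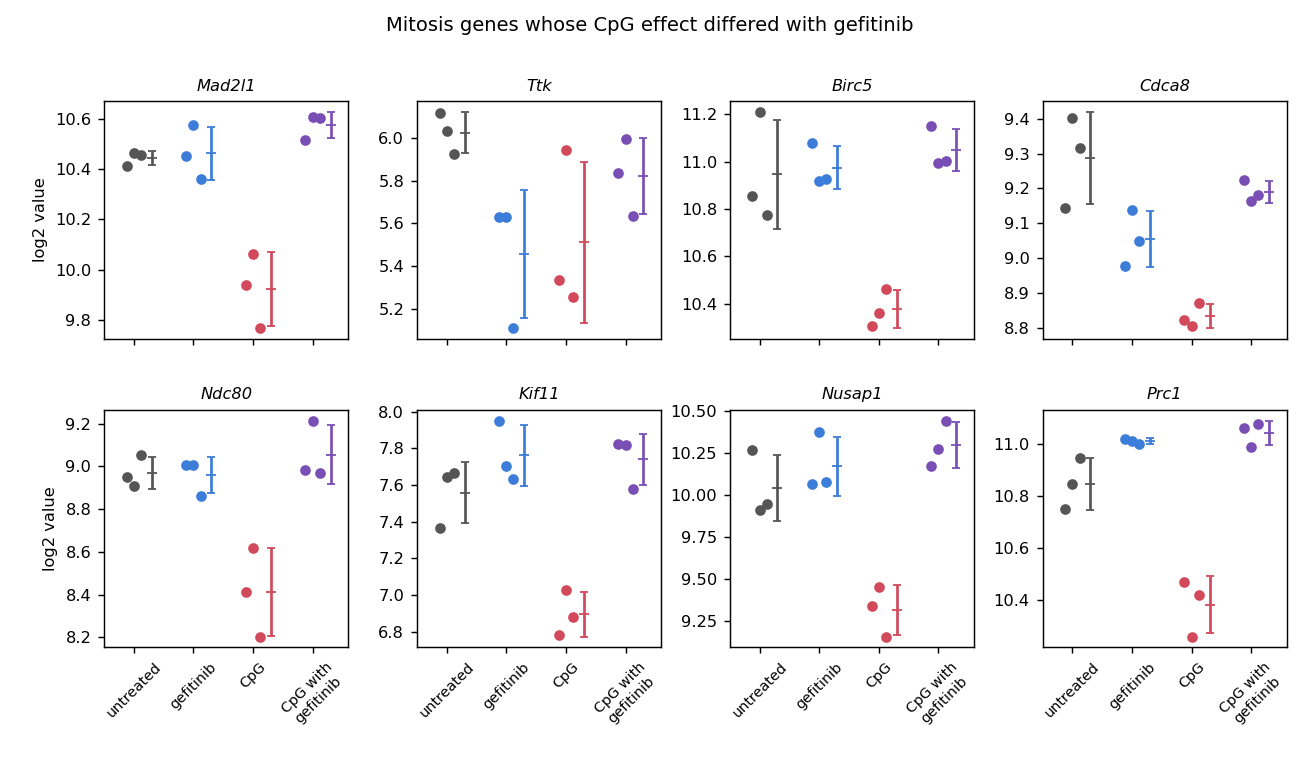
Log2 values (points, 1 per array; bars show mean ± SD, n = 3 arrays per group) of the 8 mitosis genes called in the test of the difference between the CpG effects. In 7 panels the 3 CpG arrays are below the other 9, and in Ttk CpG replicate 2 and the gefitinib arrays break that order; the vertical axes differ between panels and do not start at 0.

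The count of 8 was the least stable of the results, and it depended on single arrays. It fell to 3 without gefitinib replicate 3 and to 4 without gefitinib replicate 2, untreated replicate 2, untreated replicate 3 or replicate 1 of CpG with gefitinib. Without CpG replicate 1 or replicate 2 of CpG with gefitinib it was 5. Under median scaling in place of quantile normalisation it was 1, Nusap1, where 253 of all 8101 genes were called in the same direction, so that this count was near the background. Nusap1 kept its call in all 22 alternative settings that gave one, Cdca8 and Mad2l1 in 21, and Ttk in 7.

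Other genes of mitosis moved in the same directions. They too were listed with earlier results of these data known, so they are not independent support. Of 127 listed, 86 were measured, and 36 of these (41.9%) fell and 1 (1.16%) rose in CpG against untreated, with a median of -0.34, where 15.3% of all genes fell and 10% rose, with a median of -0.06. With gefitinib added to CpG, 49 (57%) rose and 4 (4.65%) fell, with a median of 0.43, against 22% and 15.2% of all genes and a median of 0.06. In the test of the difference 28 (32.6%) were called, all higher, against 6.34% of all genes. The 3 with the largest rise on adding gefitinib were Cdca2 (1.20 ± 0.16, adjusted p = 6.76e-05, limma), Depdc1b (1.09 ± 0.15, adjusted p = 6.39e-05) and Cenpm (1.08 ± 0.11, adjusted p = 7.09e-06). Cdca2 encodes Repo-Man, which directs a phosphatase to chromosomes at mitotic exit, and Cenpm a centromere protein. In CpG against untreated, all 3 fell, with log2 differences of -1.001 ± 0.162, -0.90 ± 0.15 and -0.88 ± 0.11 (SE, n = 3 arrays per group). The changes of all 3 were larger than those of any of the 28 genes.

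The 3 largest falls on adding gefitinib were those of Ube2s, Cdc27 and Rcc1. Ube2s encodes the enzyme that extends ubiquitin chains for the anaphase-promoting complex, and Cdc27 a subunit of that complex. Ube2s rose with CpG by 0.56 ± 0.18 (adjusted p = 0.0397, limma) and fell by 0.77 ± 0.18 with gefitinib added (adjusted p = 0.00503). Cdc27 fell by 0.49 ± 0.14 (adjusted p = 0.0157, limma) and Rcc1, the exchange factor of the GTPase RAN on chromosomes, had a difference of -0.39 ± 0.10 (adjusted p = 0.00748). In gefitinib against untreated, 2 of the 86 were higher and 4 lower, a share near the 7.8% of all genes called. In CpG with gefitinib against untreated 0 were higher and 2 lower, where 3.88% of all genes were called. These 2, named after their values were seen, were Mybl2 (-0.44 ± 0.11, adjusted p = 0.0397, limma) and Rcc1 (-0.47 ± 0.10, adjusted p = 0.023). Mybl2 encodes B-MYB, the partner of the MuvB complex, and with gefitinib alone it fell by 0.58 ± 0.11 (adjusted p = 0.00713, limma). Rcc1 was also lower with gefitinib alone, at -0.50 ± 0.10 (adjusted p = 0.0106), as were Haus8 and Tubb4b, while Anapc2 and Iqgap3 were higher. Unlike Ube2s, Rcc1 and Cdc27 were not called in CpG against untreated, at -0.07 ± 0.10 and 0.22 ± 0.14.

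DNA replication genes, which act before mitosis in the cycle, were set beside them, and were also listed with earlier results known. Of 57 listed, 49 were measured, and 31 (63.3%) fell and 0 rose with CpG, with a median of -0.46. With gefitinib added 22 (44.9%) rose and 0 fell, with a median of 0.34, and 21 (42.9%) were higher in the test of the difference. The shares of all genes are those given for the other mitosis genes. Their median difference was -0.19 in gefitinib against untreated, where 3 fell (6.12%, against 7.8% of all genes called), and -0.17 in CpG with gefitinib against untreated, where 1 fell (2.04%, against 3.88%). The 28 mitosis genes had medians of 0.01 and 0.06 in the same comparisons. Whether the lists differ was not tested.

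**Figure D5:**
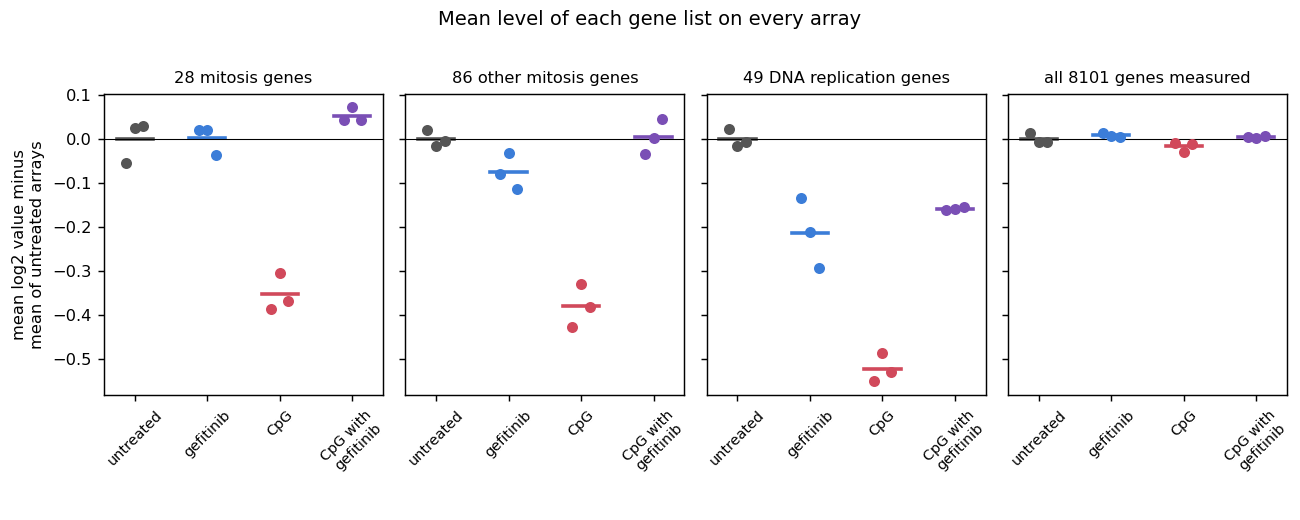
Mean log2 value over a gene list on every array (points) minus the mean over the 3 untreated arrays, with group means as lines, for the 28 mitosis genes, 86 other mitosis genes, 49 DNA replication genes and all 8101 genes. The CpG arrays are lowest in the first 3 panels, and in the DNA replication panel all gefitinib arrays, with or without CpG, lie below the untreated ones.

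The plot of list means on every array shows this difference in level. For DNA replication genes the untreated arrays lay between 9.18 and 9.22 and the arrays with both agents between 9.03 and 9.04, without overlap, while for the 28 mitosis genes the arrays with both agents, at 8.99 to 9.02, lay above the untreated ones, at 8.89 to 8.98. For the 86 other mitosis genes these 2 groups overlapped, at 8.08 to 8.16 and 8.10 to 8.13. The position of the 28 genes turns with the scaling: their median difference between these groups was 0.06 here and -0.088 under median scaling, where that of all genes was -0.06. Quantile normalisation gives the arrays like distributions, which keeps the mean over all genes nearly level in the last panel.

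Some markers of macrophages moved in the opposite sense. Of the 7 measured, 4 were higher with CpG (Adgre1, Itgam, Cd14 and Spi1) and 6 were lower when gefitinib was added, where Ptprc, at -0.48, was not called. Among all genes, 10% were higher with CpG and 15.2% lower with gefitinib added. Itgam, counted in both, was detected on 3 arrays only, the minimum, so its calls carry no weight, and 3 and 5 remain of the 6 markers detected on all arrays. Fcgr1 differed by 0.02 with CpG and was lower in gefitinib against untreated, by -1.04 (adjusted p = 0.011, limma), and in CpG with gefitinib against untreated, by -1.16 (adjusted p = 0.00986). The summed signal of the 7 on the linear scale was 26169 to 29346 on the untreated arrays, 23137 to 27109 with gefitinib, 38125 to 40785 with CpG and 21568 to 24818 with both. Camp and Cdh1, each the 1 measured marker of its list, had summed signals of 19.8 to 38.0 and 25.1 to 50.9 over the 12 arrays, and Camp, detected on 4 arrays, is given no comparison. Cdh1 was not called in either comparison. The part of these markers in the changes of the mitosis genes was not tested.

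The promoter motifs were also counted by call, with no test. Of the 15 genes that rose with gefitinib added, 14 had a promoter window, and 12 of these (85.7%) held a CHR element of either form. Of the 13 measured genes that were not called, 10 had a window, and 8 (80.0%) held one. CCAAT boxes were in 8 of the 14 (57.1%) and in 9 of the 10 (90.0%). Among genes called in both main comparisons, Plk1, Bub1b, Cdca8, Kif11, Kif22 and Prc1 held both motifs. Birc5, Ndc80 and Kif2c held a CHR element only, and Mad2l1 and Nusap1 held neither. Among genes called in neither comparison, Cdk1, Ube2c, Bub3, Ttk, Cenpa, Top2a and Kif23 held both motifs. Cdc25b held a CCAAT box only and Pttg1 held neither, while Foxm1, Incenp and Tpx2 had no window.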

How the data were processed

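Expression was measured on 12 Illumina bead arrays of RAW264.7 cells, 3 biological replicates in each of 4 groups per the labels. The submitters' processing notes name GenomeStudio 2010.2. The deposited intensity of each probe is linear and not normalised, per the file headers. A detection p-value is deposited beside each intensity, per the file headers. The authors' value table, in which those intensities had been quantile-normalised (medians 120.007 to 120.064), served as an alternative. Array precision is limited by the 3 arrays per group, and the files name no chip.

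The signals were turned into log2 values by neqc of limma 3.58.1 (R 4.3.3), which corrects background by normexp from the detection p-values, adds an offset of 16 and applies quantile normalisation. Probes with detection p under 0.05 on at least 3 arrays were kept, and the brightest stood for its gene. Of 25697 probes, 23978 had 1 symbol in the platform annotation, 0 several and 1719 were not listed. Symbols were updated through gene identifiers (23962) or accessions (9), and 7 were kept. All 12 arrays entered 1 linear model of the 4 groups (lmFit, eBayes; degrees of freedom 8 residual and 5.07 prior). P-values were adjusted over 8101 genes by Benjamini-Hochberg with a threshold of 0.05, and the fit was tested on simulated data. No list was tested as a set.

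The replicate numbers in the labels were checked for pairing. Deviations from group means correlated at 0.11, 0.34 and 0.35 for the 3 pairs of CpG and CpG with gefitinib. They correlated at 0.24, 0.28 and 0.24 for gefitinib and CpG with gefitinib. The numbers may pair these groups, which was not tested. If they do, they also pair gefitinib with CpG, where the correlations were 0.06, 0.18 and 0.35. Correlations with the untreated group ranged from -0.15 to 0.19. The main fit holds no block, so its p-values use no pairing.

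All measured mitosis genes are named. Of the other mitosis genes, the 3 highest and 3 lowest called in CpG with gefitinib against CpG are named. Those called in gefitinib against untreated or in CpG with gefitinib against untreated are named too, chosen after their values were seen. The genes and lists were chosen with earlier results of these data known. Alternatives covered normalisation, background correction, offset, the authors' table, the filter, the choice of probe, the arrays in the fit, the variance prior, the replicate block and leaving out each array.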

Additional observations from a re-analysis of the deposited data

Results flagged for a closer look

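In 8 mitosis genes the effect of CpG differed between cells with and without gefitinib by the test of the difference itself (limma, adjusted over 8101 genes). The effect with gefitinib minus the effect without it was 0.85 for Nusap1, 0.63 for Mad2l1, 0.59 for Cdca8, 0.66 for Ndc80, 0.65 for Birc5, 0.64 for Kif11, 0.50 for Prc1 and 0.88 for Ttk, on the log2 scale. Nusap1, Mad2l1, Cdca8, Ndc80, Birc5, Kif11 and Prc1 fell with CpG alone, by between 0.45 and 0.73, and had CpG differences of -0.02 to 0.13 in the presence of gefitinib. For Ttk the CpG differences were -0.52 without and 0.37 with gefitinib, neither of them called, and its difference was called in 7 of 22 alternative settings.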

How the results depend on the processing

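No called gene changed direction in any of the alternatives that gave it a value, 24 for the comparisons of groups and 22 for the test of the difference. In both main comparisons Birc5, Kif11, Kif22, Mad2l1, Ndc80 and Nusap1 kept their calls throughout, as did Bub1b and Kif4 in CpG against untreated and Kif2c and Prc1 in CpG with gefitinib against CpG. Under median scaling the calls were 9 in CpG with gefitinib against CpG and 1 in the test of the difference, where 1212 and 253 of all 8101 genes were called higher. The medians against untreated cells were then -0.50 with CpG, -0.14 with gefitinib and -0.088 with both, where those of all genes were -0.12, -0.08 and -0.06. The median in the test of the difference was 0.54, and 0.15 over all genes. Without background correction, and with the authors' table, the median in CpG against untreated was -0.31, and 1 gene, Kif4, was called in CpG with gefitinib against untreated. In that comparison 323 of all genes were higher and 190 lower in both settings. Without a filter the medians were -0.26 in CpG against untreated and 0.31 in the test of the difference, over 36 genes. With detection on all 12 arrays 1 gene, Pttg1, was called in CpG with gefitinib against untreated, where 264 of all genes kept were higher and 168 lower.

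With the replicate block, 2 genes were called in gefitinib against untreated, Kif2c and Ttk, and 1 in CpG with gefitinib against untreated, Kif4. Over all genes, 564 were higher and 378 lower in the first of these, and 307 higher and 189 lower in the second. The block gave 16 calls in CpG against untreated, 17 in CpG with gefitinib against CpG and 10 in the test of the difference. It also raised the calls over all genes. With the block 1426 were lower with CpG, 1968 higher with gefitinib added and 636 higher in the test of the difference. Without the block these counts were 1241, 1786 and 514. With only the 2 groups and the block, an alternative chosen after seeing the data, 1 gene was called in gefitinib against untreated, Ttk. Over all genes, 302 were then higher and 165 lower. Leaving out 1 array gave 10 to 14 calls in CpG against untreated (median -0.45 to -0.33), 12 to 16 in CpG with gefitinib against CpG (0.35 to 0.41), 0 to 1 in gefitinib against untreated, 1 being Ttk without CpG replicate 2, and 3 to 8 in the test of the difference (0.36 to 0.49). Counts over all genes are not given here for the settings that left out 1 array. In CpG with gefitinib against untreated, all genes split 206 higher to 108 lower, and 56 to 16 under median scaling. The cause of these shifts was not tested. A chip block was not run, since the files name no chip. Genes detected on 0 or 1 array have no reliable level here.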
